A study of Homo sapiens with 24 samples.

Results

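The 10 circadian clock genes PER1, PER2, PER3, CRY1, CRY2, NR1D1, NR1D2, DBP, TEF and BHLHE40 were described across culture formats of human PANC-1 and HEK293T cells. They were found by gene symbol among the 26450 genes of the deposited table, and all 10 were present. They were selected on measured values: the FPKM differences between culture formats in these same libraries are what drew attention to them. Their levels and changes are therefore given as a description, without a test, and tests are given only for other genes. The lists of those genes were also chosen with earlier results of these data known. Their counts and p-values are to be read with that limit.

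RNA was sequenced from 24 libraries, with 3 libraries in each of 8 groups. PANC-1 cells are epithelial and derive from a carcinoma of the pancreatic duct, and HEK293T is a transformed line from embryonic kidney. Each line was grown flat (2D), as aggregates in AggreWell microwells, and as spheroids rotated inside dual-axis rotating capillary containers (DRCC) at a speed of 1 or 30 rpm. The labels name no drug, gene edit or added factor for any group, and the medium, the days in culture and the hour of harvest are not stated there.

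The circadian clock is a transcriptional feedback loop. CLOCK and BMAL1 bind E-box sequences and activate the PER and CRY genes, whose proteins return to the nucleus and repress CLOCK and BMAL1. In a second loop the nuclear receptors NR1D1 and NR1D2 (REV-ERB alpha and beta), also E-box targets, repress BMAL1, while DBP and TEF activate genes with D-box sequences and BHLHE40 represses E-box genes. PER1 is known, besides its rhythm, for a fast transcriptional response to cAMP and glucocorticoid signals, and cultured cells lose a common clock phase unless a stimulus sets it.

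Promoter sequences are shown for 5 members whose levels stood out or whose window held a searched motif: PER1, NR1D1 and DBP, with the largest differences in PANC-1, NR1D2, which was far above 2D in both lines under rotation, and PER2, a paralogue of PER1 with small differences. Each is the RefSeq window (GRCh38.p14) of 250 bases before to 50 after a start site, written 5′ to 3′ on the gene's strand, with motif letters in capitals. The windows are chr17:8152355-8152654 (PER1, minus strand), chr17:40100540-40100839 (NR1D1, minus strand), chr19:48637330-48637629 (DBP, minus strand), chr3:23945871-23946170 (NR1D2, plus strand) and chr2:238288561-238288860 (PER2, minus strand).
PER1: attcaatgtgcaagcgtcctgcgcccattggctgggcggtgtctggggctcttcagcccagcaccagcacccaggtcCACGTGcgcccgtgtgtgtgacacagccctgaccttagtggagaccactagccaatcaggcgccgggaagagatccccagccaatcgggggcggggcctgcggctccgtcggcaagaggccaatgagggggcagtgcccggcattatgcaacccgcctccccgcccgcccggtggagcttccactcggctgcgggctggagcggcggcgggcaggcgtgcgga
NR1D1: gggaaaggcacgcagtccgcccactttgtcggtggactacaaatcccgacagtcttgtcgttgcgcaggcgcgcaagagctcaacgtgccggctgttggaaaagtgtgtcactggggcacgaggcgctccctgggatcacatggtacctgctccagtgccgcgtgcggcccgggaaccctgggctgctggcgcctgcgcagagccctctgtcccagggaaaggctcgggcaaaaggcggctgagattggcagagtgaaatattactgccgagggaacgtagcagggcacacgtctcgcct
DBP: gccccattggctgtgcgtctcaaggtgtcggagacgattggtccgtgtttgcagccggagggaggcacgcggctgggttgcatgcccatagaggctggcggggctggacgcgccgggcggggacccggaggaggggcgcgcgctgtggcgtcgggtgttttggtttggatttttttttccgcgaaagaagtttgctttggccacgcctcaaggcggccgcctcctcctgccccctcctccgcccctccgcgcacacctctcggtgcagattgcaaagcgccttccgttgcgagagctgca
NR1D2: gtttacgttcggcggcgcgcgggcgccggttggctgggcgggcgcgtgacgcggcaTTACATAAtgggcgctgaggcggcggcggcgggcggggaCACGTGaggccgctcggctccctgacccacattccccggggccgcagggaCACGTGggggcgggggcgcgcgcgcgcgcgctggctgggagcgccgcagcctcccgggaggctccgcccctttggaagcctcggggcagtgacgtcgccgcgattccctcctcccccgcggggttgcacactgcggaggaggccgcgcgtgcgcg
PER2: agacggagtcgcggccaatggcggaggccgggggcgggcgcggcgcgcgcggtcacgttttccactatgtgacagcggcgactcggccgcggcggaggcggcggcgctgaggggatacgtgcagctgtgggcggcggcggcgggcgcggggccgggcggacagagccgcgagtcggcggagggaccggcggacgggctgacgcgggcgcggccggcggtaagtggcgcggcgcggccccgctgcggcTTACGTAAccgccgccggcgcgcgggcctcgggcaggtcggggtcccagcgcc

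The capitals mark the E-box CACGTG and the D-box, searched as TTATGTAA and as TTACGTAA on both strands. The PER1 window held 1 E-box, whose first letter lay 173 bases before the start site. In the NR1D2 window there were 2 E-boxes, at 155 and 105 bases before the start, and 1 D-box at 194 bases. The first letter of the PER2 D-box lay 3 bases before the start, so that motif runs across the start site. Neither motif was found in the NR1D1 and DBP windows shown. Across the 14 RefSeq windows of the 10 members, 5 held an E-box (PER1, NR1D2, BHLHE40 and both windows of TEF), against 7.26% of the 35116 human windows of this length. TTATGTAA was in 0.886% of all windows and in those of PER3 and NR1D2, and TTACGTAA was in 0.125% of all windows and in that of PER2. The cAMP response element TGACGTCA (1.85% of all windows) and the ROR response element, a receptor half-site with an AT-rich flank (0.581%), were in 0 of the 14. A match describes these letters only, and the absence of one says nothing of sites outside the window.

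Levels are in FPKM, fragments per kilobase of transcript scaled to library depth, so they can be set against each other between genes. They are given as the 3 libraries in the order of their replicate numbers or as mean ± SD (n = 3). Changes are differences of log2(FPKM + 1) ± SE, which understate the change of low genes, and a fold is a ratio of mean FPKM. The labels do not say that replicates were separate cultures, so an SD or a p-value here covers no more than library-to-library spread, and in such bulk samples fewer expressing cells and less RNA per cell cannot be told apart. Libraries held 32021638 to 39556154 recovered fragments. PANC-1 libraries had 6 of 6 PANC-1 markers at a mean of at least 1 FPKM, summing to 2076 to 2726 FPKM against 5.11 to 36.4 in HEK293T, and 5 of 6 epithelial markers, CDH1 being below 1 FPKM. These are means over all PANC-1 libraries: by format, KRT7 was at 0.821 FPKM at 1 rpm and 0.946 at 30 rpm, and KRT19 at 0.791 at 30 rpm. KRT8 was at 592 FPKM in PANC-1 2D and at 280.0 and 273 at 1 and 30 rpm, KRT18 at 566 against 305 and 246, and CAV1 at 163 against 53.2 and 59.2, lower in the rotated groups in which PER1, NR1D1 and DBP stood highest, and their part in the members' values was not tested. HEK293T libraries had 2 of the 3 HEK293T markers in the table above that level, with SOX11 below it, summing to 18.2 to 47.2 FPKM against 3.77 to 7.09 in PANC-1, and 4 of 6 epithelial markers, with KRT7 and KRT19 below. The median of all tested genes lay above 0 against 2D, in PANC-1 at 0.098 for AggreWell, 0.15 for 1 rpm and 0.17 for 30 rpm, and in HEK293T at 0.12, 0.18 and 0.13, and the members' changes are to be read against these shifts. The shifts depend on scaling: the same medians were -0.056, -0.042 and -0.033, and -0.074, -0.062 and -0.047, with median-ratio scaling, and -0.025 to -0.017 in PANC-1 and -0.056 to -0.046 in HEK293T with quantile normalization.

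In PANC-1 cells turned at 1 rpm, all 10 members were above 2D with no overlap of libraries, led by PER1 (37.6-fold), DBP (18.7-fold) and NR1D1 (15.3-fold). Of all tested genes 52.4% lay higher without overlap in that comparison and 33.7% lower, and since the rule used this contrast nothing is read from the count. Under 2 other scalings of the libraries 2 of the 10 changed sign: CRY1 stood at -0.03 with median-ratio scaling and PER2 at -0.09 with quantile normalization. At 30 rpm 7 members were higher than 2D and 2 lower without overlap, PER2 and PER3 being the lower ones, where 53.5% and 32.2% of all genes did so. In AggreWell 2 were higher (DBP and BHLHE40) and 3 lower (PER2, CRY1 and NR1D2), against 47.3% and 24.9%. The median change of the 10 was 1.66 at 1 rpm, 0.97 at 30 rpm and -0.02 in AggreWell. The 3 comparisons share the 2D libraries.

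HEK293T cells showed smaller differences, with BHLHE40 and NR1D2 as the members farthest above 2D. PER3 did not pass the filter on low values there, so medians are over 9 members. The counts without overlap still take in all 10, while the shares of all genes cover only those that passed the filter. PER3 is counted as higher in AggreWell and as lower at both rotation speeds. In AggreWell 7 members were higher than 2D and 1 lower without overlap (49.4% and 27.8% of all genes), and the median change of the 9 was 0.29. At 1 rpm 6 were higher and 3 lower (52.8% and 31.6%), with a median of 0.26, and at 30 rpm 7 were higher and 2 lower (49.6% and 35.7%), with a median of 0.52. DBP was lower than 2D in all 3 formats. The higher counts depend on scaling, with values given below for each gene. At 1 rpm the rises of PER1 and NR1D1 all but vanished, and those of CRY2 and TEF turned negative, with 1 or both of the other scalings. PER2 and TEF in AggreWell and PER2 at 30 rpm also turned sign.

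**Figure D1:**
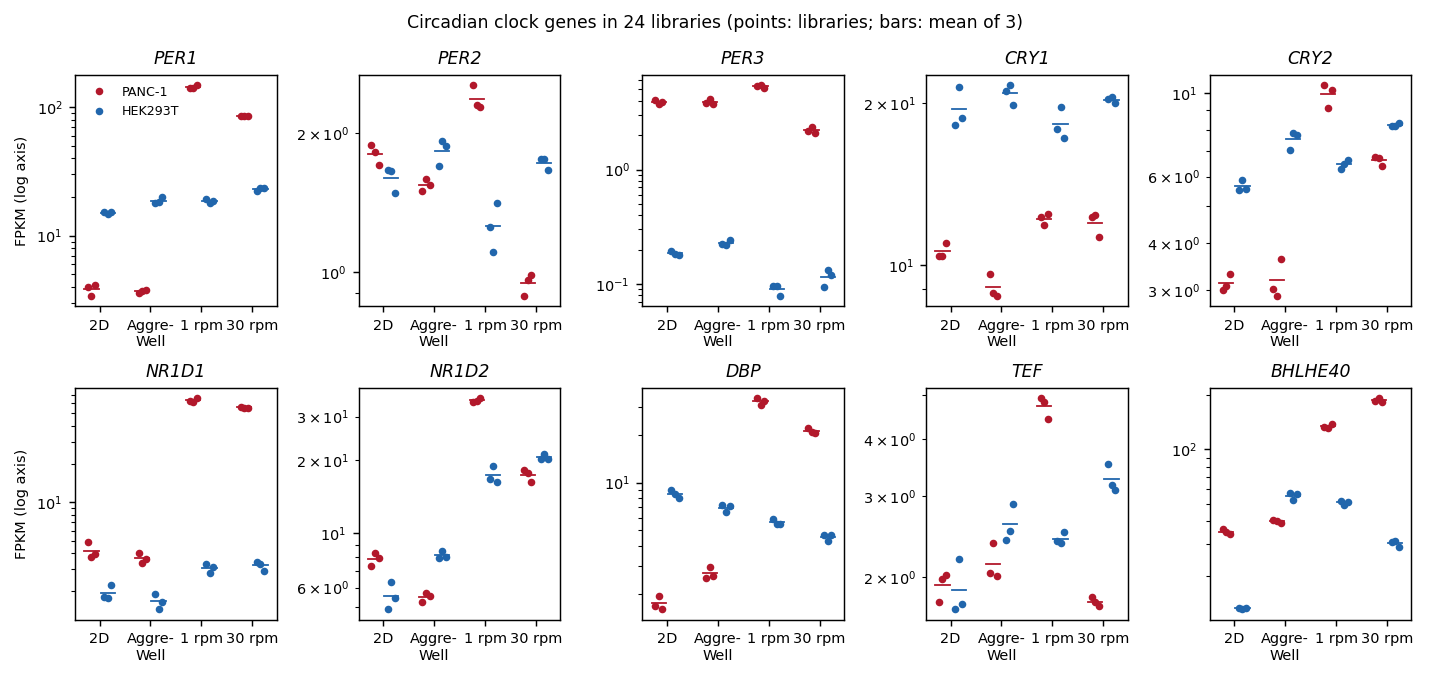
FPKM of each of the 10 clock genes (log axes with a scale per gene) in the 4 culture formats, with 1 point per library and a bar at the mean of 3, PANC-1 in red and HEK293T in blue. PER1, NR1D1 and DBP of PANC-1 sit far above the other groups at 1 and 30 rpm, while PER3 is far lower in HEK293T. DBP of the 3D formats lies above 2D in PANC-1 and below it in HEK293T.

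Among the period genes, whose products form the repressor complex with the cryptochromes, PER1 (chr17:8140472-8156506, minus strand, GENCODE 29 on GRCh38) differed most. PANC-1 libraries had 3.97, 3.39 and 4.15 FPKM of PER1 in 2D and 3.60, 3.72 and 3.75 in AggreWell. Rotation at 1 rpm gave 141, 142 and 149 FPKM and at 30 rpm 85.3, 85.8 and 85.0. The 2D and AggreWell libraries overlapped, and all 6 rotated libraries stood far above them, those of 1 rpm above those of 30 rpm. The log2 change from 2D was -0.04 ± 0.05 in AggreWell, 4.91 ± 0.05 at 1 rpm and 4.16 ± 0.05 at 30 rpm, and 30 rpm was 0.75 lower than 1 rpm on that scale (-0.75 ± 0.05). At 1 rpm PER1 was the most abundant of the 10 genes per length in PANC-1, while in 2D it ranked sixth (6 of 10).

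HEK293T cells had more PER1 in 2D than PANC-1, with 15.4, 14.6 and 15.4 FPKM. The level was 17.9, 18.3 and 20.0 FPKM in AggreWell, 19.3, 18.1 and 18.6 at 1 rpm, and 22.3, 23.6 and 23.6 at 30 rpm. Every 3D library lay above the 2D ones, the AggreWell and 1 rpm libraries overlapped, and those of 30 rpm lay highest. The changes from 2D were 0.29 ± 0.04 (0.07 with median-ratio scaling), 0.29 ± 0.04 (0.00) and 0.58 ± 0.04 (0.38) in the same order. Over the 8 groups the order of PER1 ran from PANC-1 at 1 rpm and 30 rpm through the HEK293T groups to PANC-1 2D and AggreWell, and the only neighbours that overlapped were HEK293T AggreWell with 1 rpm and PANC-1 2D with AggreWell.

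PER2 (chr2:238244038-238290102, minus strand), the paralogue known as the pace-setting repressor, was low in every group. PANC-1 libraries ranged from 1.71 to 1.89 FPKM in 2D and from 1.501 to 1.59 in AggreWell. The range was 2.28 to 2.55 FPKM at 1 rpm and 0.886 to 0.986 at 30 rpm. No format of PANC-1 overlapped another for PER2: 1 rpm was highest and 30 rpm lowest of all 8 groups. The change from 2D was -0.14 ± 0.05 in AggreWell, 0.27 ± 0.05 at 1 rpm (-0.09 with quantile normalization) and -0.53 ± 0.05 at 30 rpm, and 30 rpm was 2.52-fold lower than 1 rpm. HEK293T means were 1.60 ± 0.104 FPKM in 2D, 1.83 ± 0.122 in AggreWell, 1.26 ± 0.154 at 1 rpm and 1.73 ± 0.0526 at 30 rpm. There the change at 1 rpm was -0.21 ± 0.06, while the 0.12 ± 0.06 of AggreWell and the 0.07 ± 0.06 of 30 rpm turned negative with median-ratio scaling (-0.02 and -0.06) and with quantile normalization (-0.23 and -0.29).

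The third period gene, PER3 (chr1:7784320-7845177, plus strand), separated the lines most by level. In PANC-1 the means were 3.89 ± 0.166 FPKM in 2D, 3.89 ± 0.229 in AggreWell, 5.33 ± 0.156 at 1 rpm and 2.22 ± 0.137 at 30 rpm. The rotation speeds lay on either side of 2D, at 0.37 ± 0.05 for 1 rpm and -0.61 ± 0.05 for 30 rpm, without overlap. HEK293T libraries held 24 to 76 fragments of PER3 each, or 0.0790 to 0.242 FPKM, with means of 0.187 ± 0.00812 in 2D, 0.228 ± 0.0116 in AggreWell, 0.0909 ± 0.0103 at 1 rpm and 0.116 ± 0.0199 at 30 rpm. At 1 rpm the level was 2.05-fold below 2D. PER3 shares 868 exonic bases (10.7% of its own) with UTS2 on the opposite strand, whose mean in HEK293T was 0.0350, 0.703, 1.05 and 1.49 FPKM in the order 2D, AggreWell, 1 rpm and 30 rpm, and at most 0.0107 in any format of PANC-1. The sources used here do not say whether counting used strand, and a part of such reads in the PER3 values was not tested.

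PER1 made up most of the summed PER level in rotated PANC-1 cells. Its share was 40.2% ± 2.26 (SD, n = 3) in 2D and 40.5% ± 1.17 in AggreWell, then 94.9% ± 0.301 at 1 rpm and 96.4% ± 0.146 at 30 rpm. HEK293T already had 89.4% ± 0.735 in 2D and stayed between that and 93.3% ± 0.638 in the means of the other formats. The summed PER level of PANC-1 was 9.53 ± 0.525 FPKM in 2D, 152 ± 4.42 at 1 rpm and 88.5 ± 0.505 at 30 rpm.

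**Figure D2:**
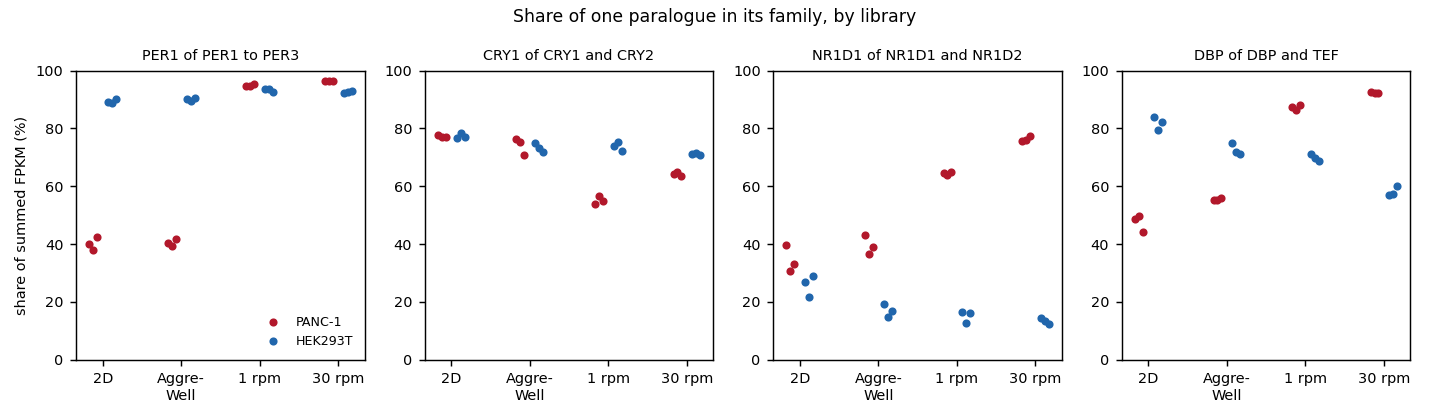
Share of 1 paralogue in the summed FPKM of its family (percent, from 0 to 100) by library, for PER1, CRY1, NR1D1 and DBP, in the 4 formats, PANC-1 in red and HEK293T in blue. In PANC-1 the PER1 share goes from 40.2% in 2D to 94.9% at 1 rpm, and the NR1D1 and DBP shares move up in PANC-1 and down in HEK293T.

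Cryptochromes bind CLOCK and BMAL1 directly and are the stronger repressors of the complex. CRY1 (chr12:106991364-107093829, minus strand) was the steadiest member. PANC-1 means were 10.6 ± 0.340 FPKM in 2D, 9.08 ± 0.482 in AggreWell, 12.2 ± 0.298 at 1 rpm and 11.98 ± 0.620 at 30 rpm. The changes from 2D were -0.20 ± 0.04 in AggreWell, 0.19 ± 0.04 at 1 rpm (-0.03 with median-ratio scaling) and 0.16 ± 0.04 at 30 rpm (-0.06 with median-ratio scaling and -0.01 with quantile normalization). In HEK293T all 4 formats overlapped with their neighbours in the order, at means of 18.3 to 20.9 FPKM, and all 12 HEK293T libraries lay above all 12 of PANC-1.

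CRY2 (chr11:45847118-45883248, plus strand) moved more. In PANC-1 it was 3.00, 3.07 and 3.30 FPKM in 2D and 3.01, 2.89 and 3.63 in AggreWell. It was 10.5, 9.14 and 10.2 FPKM at 1 rpm and 6.79, 6.73 and 6.41 at 30 rpm. Both flat and microwell libraries overlapped, and the rotated ones lay above them, those of 1 rpm highest of all 8 groups. The changes were 0.02 ± 0.06 in AggreWell, 1.41 ± 0.06 at 1 rpm and 0.89 ± 0.06 at 30 rpm. HEK293T means were 5.67 ± 0.195 in 2D, 7.54 ± 0.431 in AggreWell, 6.48 ± 0.175 at 1 rpm and 8.23 ± 0.0906 FPKM at 30 rpm, with changes of 0.36 ± 0.04, 0.16 ± 0.04 and 0.47 ± 0.04, of which that at 1 rpm became -0.09 with median-ratio scaling and -0.19 with quantile normalization. The share of CRY1 in the cryptochrome sum was 77.3% ± 0.342 in PANC-1 2D and 55.1% ± 1.29 at 1 rpm, while in HEK293T the means ran from 71.2% to 77.4%.

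NR1D1 (chr17:40092787-40100725, minus strand), a heme-binding repressor of BMAL1, had 4.85, 3.70 and 3.91 FPKM in PANC-1 2D and 4.01, 3.33 and 3.57 in AggreWell. Rotated PANC-1 cells had 62.8, 61.9 and 65.7 FPKM at 1 rpm and 56.6, 55.4 and 55.6 at 30 rpm. The rotated libraries stood far above the rest, with those of 1 rpm slightly above those of 30 rpm, and 2D overlapped AggreWell. The changes were -0.15 ± 0.07 in AggreWell, 3.65 ± 0.07 at 1 rpm and 3.47 ± 0.07 at 30 rpm. HEK293T libraries were low, at 1.80, 1.76 and 2.23 FPKM in 2D, 1.90, 1.44 and 1.65 in AggreWell, 3.29, 2.77 and 3.11 at 1 rpm, and 3.38, 3.30 and 2.87 at 30 rpm. The rotated HEK293T libraries lay above 2D by 0.47 ± 0.08 and 0.52 ± 0.08 (0.01 and 0.15 with quantile normalization), they overlapped each other, and AggreWell overlapped 2D.

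The NR1D1 gene shares 263 exonic bases (9.49% of its own) with THRA, the thyroid hormone receptor alpha gene on the opposite strand. THRA, which is no member and was tested, rose in PANC-1 from 2.83 ± 0.0370 FPKM in 2D to 3.95 ± 0.120 in AggreWell, 8.26 ± 0.105 at 1 rpm and 6.68 ± 0.175 at 30 rpm (log2 changes 0.37 ± 0.04, 1.27 ± 0.04 and 1.00 ± 0.04, limma adjusted p = 7.6e-07, 6.5e-13 and 7.2e-12). In HEK293T it fell from 15.0 ± 0.144 FPKM to 12.7 ± 0.502, 10.7 ± 0.310 and 10.9 ± 0.823 in the same order (-0.22 ± 0.05, -0.45 ± 0.05 and -0.42 ± 0.05, limma adjusted p = 0.00083, 1.2e-06 and 1.9e-06). In HEK293T at both rotation speeds NR1D1 was thus above 2D and its neighbour below, and these calls of THRA also held with both other scalings. What part of either gene's values came from reads of the other was not tested.

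NR1D2 (chr3:23945260-23980618, plus strand), the second REV-ERB receptor, differed between formats in both lines. PANC-1 had 7.34, 8.32 and 7.90 FPKM in 2D and 5.26, 5.73 and 5.57 in AggreWell. It had 34.5, 34.8 and 35.6 FPKM at 1 rpm and 18.2, 17.6 and 16.2 at 30 rpm. No pair of formats overlapped in PANC-1: AggreWell was lowest and 1 rpm highest. The changes from 2D were -0.44 ± 0.05, 2.02 ± 0.05 and 1.05 ± 0.05, and 30 rpm was 2.02-fold below 1 rpm. HEK293T had 4.90, 6.36 and 5.43 FPKM in 2D, 7.93, 8.47 and 8.02 in AggreWell, 16.7, 18.9 and 16.3 at 1 rpm, and 20.1, 21.2 and 20.1 at 30 rpm. Here the formats were again separate, but 30 rpm was highest and AggreWell lay above 2D, with changes of 0.48 ± 0.07, 1.48 ± 0.07 and 1.71 ± 0.07. At 30 rpm the lines stood next to each other, at 17.3 ± 1.04 FPKM in PANC-1 and 20.5 ± 0.615 in HEK293T.

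NR1D1 was the lesser REV-ERB transcript in PANC-1 2D, at 34.6% ± 4.71 of the pair, and the greater one at 1 rpm (64.5% ± 0.416) and at 30 rpm (76.3% ± 0.976). In HEK293T it was 25.9% ± 3.79 in 2D and 13.5% ± 0.933 at 30 rpm. The summed REV-ERB level went from 11.8 to 12.2 FPKM over the 2D libraries to a mean of 98.4 ± 2.55 at 1 rpm in PANC-1, and from 7.49 ± 0.724 to 20.4 ± 1.20 in HEK293T.

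DBP (chr19:48630030-48637438, minus strand) encodes a D-box activator of the PAR bZIP family whose transcript is a common readout of clock output. PANC-1 libraries had 1.67, 1.94 and 1.60 FPKM in 2D and 2.52, 2.95 and 2.57 in AggreWell. Rotation gave 33.8, 30.6 and 32.7 FPKM at 1 rpm and 22.1, 20.7 and 20.5 at 30 rpm. All 4 formats of PANC-1 were separate, with 2D lowest, and the 2D values rest on 132 to 164 fragments per library. The changes were 0.43 ± 0.06, 3.61 ± 0.06 and 3.02 ± 0.06. HEK293T began higher, at 8.92, 8.46 and 8.04 FPKM in 2D, and had 7.17, 6.49 and 7.12 in AggreWell, 5.92, 5.46 and 5.51 at 1 rpm, and 4.69, 4.29 and 4.67 at 30 rpm. Its formats were separate too but with 2D highest, at changes of -0.26 ± 0.05, -0.51 ± 0.05 and -0.77 ± 0.05. In both lines 30 rpm lay below 1 rpm. All 8 groups were separate from their neighbours for DBP, with both rotated PANC-1 groups at the top, the HEK293T groups in the middle, and PANC-1 AggreWell and 2D at the bottom.

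DBP shares 661 exonic bases (10.1% of its own) with SPHK2 on the opposite strand, a neighbour chosen after the annotation was seen. SPHK2 means in PANC-1 were 3.58 ± 0.247 FPKM in 2D, 4.06 ± 0.530 in AggreWell, 2.06 ± 0.103 at 1 rpm and 3.42 ± 0.179 at 30 rpm. In HEK293T they were 6.85 ± 0.506, 5.59 ± 0.186, 5.45 ± 0.283 and 5.82 ± 0.240 FPKM, below 2D in every 3D format, as DBP was. What part of the DBP values came from SPHK2 reads was not tested.

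TEF (chr22:41367333-41399326, plus strand), the other PAR bZIP activator, was highest in PANC-1 at 1 rpm. The PANC-1 means were 1.92 ± 0.138 FPKM in 2D, 2.14 ± 0.200 in AggreWell, 4.72 ± 0.260 at 1 rpm and 1.76 ± 0.0385 at 30 rpm. Only the 1 rpm libraries stood apart, at 0.97 ± 0.06 above 2D, while 30 rpm overlapped 2D (-0.08 ± 0.06). In HEK293T the means were 1.88 ± 0.268, 2.60 ± 0.253, 2.42 ± 0.0732 and 3.26 ± 0.224 FPKM, with changes of 0.33 ± 0.07 and 0.26 ± 0.07 that became -0.00 and -0.20 with quantile normalization, and 0.57 ± 0.07 at 30 rpm. The share of DBP in the sum of both was 47.5% ± 2.85 in PANC-1 2D and 92.3% ± 0.159 at 30 rpm, against 81.9% ± 2.27 and 58.2% ± 1.66 in HEK293T.

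BHLHE40 (chr3:4979116-4985323, plus strand), a repressor of E-box genes that is also a known hypoxia target, was the most abundant member in 2D PANC-1. Its libraries there had 36.3, 34.9 and 33.8 FPKM, with 40.6, 40.3 and 39.3 in AggreWell. At 1 rpm they had 133, 131 and 137 FPKM and at 30 rpm 185, 191 and 183. The 4 formats were separate and 30 rpm was highest, whereas the means of the other 9 were highest at 1 rpm. The changes were 0.19 ± 0.03 (0.00 with median-ratio scaling), 1.90 ± 0.03 and 2.38 ± 0.03. HEK293T had 13.3, 13.1 and 13.3 FPKM in 2D, 57.0, 52.2 and 56.8 in AggreWell, 52.0, 49.4 and 51.0 at 1 rpm, and 30.8, 31.0 and 28.8 at 30 rpm. Here AggreWell was highest and 30 rpm the lowest of the 3D formats, again without overlap, with changes of 1.99 ± 0.04, 1.87 ± 0.04 and 1.13 ± 0.04. Beside these, 8 listed hypoxia response genes gave, among the 6 tested in PANC-1, 4 higher and 1 lower in AggreWell, 3 and 3 at 1 rpm and 5 and 0 at 30 rpm (limma adjusted p under 0.05), and among the 7 tested in HEK293T 7 and 0, 5 and 2, and 2 and 2. Their medians were 0.57, 0.05 and 0.68 in PANC-1 and 1.5, 0.37 and -0.08 in HEK293T, and their part in the BHLHE40 values was not tested. Of all tested genes 45.9% rose and 24.1% fell in PANC-1 AggreWell, 52.3% and 33.9% at 1 rpm and 53.6% and 32.2% at 30 rpm, and in HEK293T 48.6% and 26.8%, 53.1% and 31.7%, and 49.6% and 35.5%. NDRG1, a stress response gene, was the listed gene with the largest change in 5 of the 6 comparisons, with 1.48 ± 0.03 in AggreWell and 1.51 ± 0.03 at 30 rpm for PANC-1, and 2.26 ± 0.03, 1.48 ± 0.03 and 1.46 ± 0.03 for HEK293T (limma adjusted p = 1.4e-12, 1.0e-13, 1.1e-14, 6.1e-14 and 4.7e-14). ADM, a vasodilator peptide gene, fell at 1 rpm in PANC-1 (-0.91 ± 0.04, limma adjusted p = 1.7e-11) and rose at 30 rpm (0.85 ± 0.04, limma adjusted p = 3.5e-11), and BNIP3, a mitophagy receptor gene, fell at 30 rpm in HEK293T (-1.26 ± 0.04, limma adjusted p = 5.7e-12). With median-ratio scaling the same counts were 4 and 2, 2 and 3, and 4 and 0 in PANC-1 and 7 and 0, 3 and 2, and 2 and 4 in HEK293T.

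**Figure D3:**
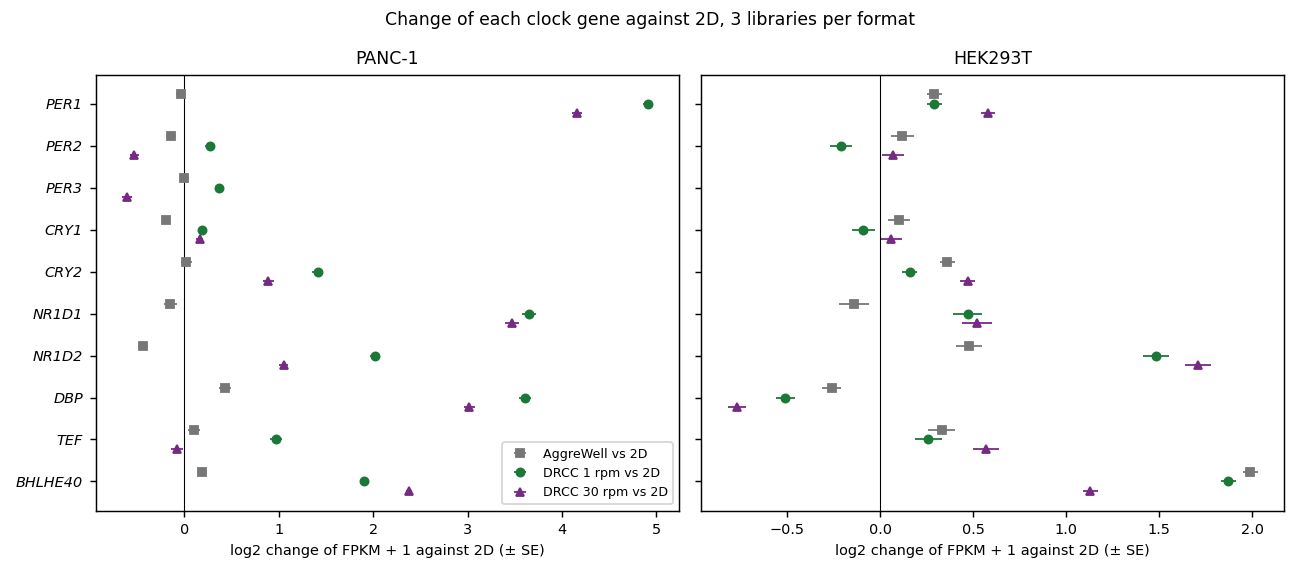
Difference of log2(FPKM + 1) from 2D for the 10 clock genes (horizontal axis, with another range in each panel; bars are ± SE, 3 libraries per format), in AggreWell (gray squares), at 1 rpm (green circles) and at 30 rpm (purple triangles). PANC-1 reaches 4.91 for PER1 at 1 rpm and HEK293T 1.99 for BHLHE40 in AggreWell. PER3 of HEK293T did not pass the filter. Some values of PER2, CRY1, CRY2 and TEF, up to 0.33 for TEF in HEK293T AggreWell, change sign with other scalings.

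Set directly against 1 rpm, PANC-1 at 30 rpm had 8 members lower without overlap, 1 higher (BHLHE40, 0.48 ± 0.03) and 1 overlapping (CRY1), where 34.5% of all genes were lower and 37.8% higher. The differences of the 8 ran from -0.18 ± 0.07 for NR1D1 to -1.05 ± 0.06 for TEF, and the median of the 10 was -0.67 beside 0.017 for all genes. In HEK293T 6 members were higher at 30 rpm than at 1 rpm (PER1, PER2, CRY1, CRY2, NR1D2 and TEF) and 2 lower (DBP and BHLHE40), against 22.7% and 37.2% of all genes. That balance of all genes turned with scaling: limma called 2464 higher and 4134 lower as reported, 3880 and 2738 with median-ratio scaling and 3361 and 3234 with quantile normalization. The members' median was 0.23 over the 9 that passed the filter, beside -0.041.

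The lines also differed in how far the same format lay from 2D, which is given for the members without a test. HEK293T minus PANC-1, the difference in log2 change at 1 rpm was -4.62 ± 0.07 for PER1, -4.12 ± 0.08 for DBP and -3.18 ± 0.11 for NR1D1. It was -0.54 ± 0.09 for NR1D2 and -0.04 ± 0.05 for BHLHE40. NR1D2 thus lay farther above 2D in PANC-1 at that speed, while the BHLHE40 difference was within 1 SE of 0 there and 1.80 ± 0.05 in AggreWell.

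The other genes of the clock were taken from a list of 26, of which 25 were in the table and 19 passed the filter in PANC-1 and 21 in HEK293T. These were tested with limma, and calls are at an adjusted p under 0.05 over all tested genes. In PANC-1, 9 rose and 4 fell in AggreWell, against 45.9% and 24.1% of all genes, with a median change of 0.06. At 1 rpm 12 rose and 4 fell (52.3% and 33.9% of all genes; median 0.28), and at 30 rpm 10 rose and 7 fell (53.6% and 32.2%; median 0.17). In HEK293T, 15 rose and 2 fell in AggreWell (48.6% and 26.8%; median 0.26), 15 and 2 at 1 rpm (53.1% and 31.7%; median 0.33), and 14 and 4 at 30 rpm (49.6% and 35.5%; median 0.27). The split depended on scaling: with median-ratio scaling it was 4 against 8, 9 against 7 and 8 against 9 in PANC-1 and 9 against 6, 10 against 6 and 10 against 6 in HEK293T, and with quantile normalization 6 against 6, 9 against 6 and 8 against 8, and 12 against 6, 10 against 6 and 11 against 6. All genes shifted likewise: with median-ratio scaling 3357 rose and 4954 fell in PANC-1 AggreWell, 4648 and 5247 at 1 rpm and 4762 and 5193 at 30 rpm, and 4060 and 5565, 4845 and 5775, and 4982 and 5667 in HEK293T. With quantile normalization they were 3472 and 4063, 4807 and 5053, and 4677 and 5096 in PANC-1, and 3893 and 5281, 4735 and 5556, and 4749 and 5598 in HEK293T.

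Of the core activators, CLOCK was at 2.43 ± 0.0840 FPKM in PANC-1 2D. It rose to 3.73 ± 0.116 in AggreWell (0.46 ± 0.05, limma adjusted p = 4.9e-06) and fell to 1.83 ± 0.0646 at 30 rpm (-0.27 ± 0.05, limma adjusted p = 0.00033), while the call at 1 rpm (0.15 ± 0.05, limma adjusted p = 0.018) was lost with median-ratio scaling (-0.02) and reversed with quantile normalization (-0.20). HEK293T CLOCK rose from 0.720 ± 0.0937 FPKM to 1.94 ± 0.158, 2.31 ± 0.0948 and 2.32 ± 0.0640 in AggreWell, 1 rpm and 30 rpm (0.77 ± 0.06, 0.95 ± 0.06 and 0.95 ± 0.06, limma adjusted p = 4.5e-08, 2.9e-09 and 2.6e-09). BMAL1, the partner of CLOCK and the main target of the REV-ERB repressors, was at 2.33 ± 0.240 FPKM in PANC-1 2D. It rose to 3.54 ± 0.0205 FPKM at 1 rpm (0.45 ± 0.06, limma adjusted p = 1.1e-05; 0.10 and no call with quantile normalization) and to 4.56 ± 0.415 at 30 rpm (0.74 ± 0.06, limma adjusted p = 5.7e-08), groups in which NR1D1 was at 63.5 and 55.9 FPKM. Its smaller rise in AggreWell (0.18 ± 0.06, limma adjusted p = 0.020) was lost with both scalings.

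In HEK293T BMAL1 rose from 2.02 ± 0.136 FPKM to 3.07 ± 0.139 at 1 rpm and 3.16 ± 0.0441 at 30 rpm (0.43 ± 0.05 and 0.46 ± 0.05, limma adjusted p = 5.3e-06 and 2.5e-06), calls that quantile normalization did not keep (-0.02 and 0.10). The AggreWell value was 1.90 ± 0.166 FPKM (-0.06 ± 0.05, limma adjusted p = 0.30), called lower with median-ratio scaling (-0.22) and with quantile normalization (-0.40). Summed over CLOCK, NPAS2 and both BMAL genes, the activators were at 31.5 ± 0.289 FPKM in PANC-1 2D and 25.3 ± 0.745 at 1 rpm, and at 7.73 ± 0.413 and 13.9 ± 0.291 in HEK293T. The lower PANC-1 sum came from NPAS2 (14.45 to 11.28 FPKM) and BMAL2 (12.27 to 7.68), while the means of CLOCK and BMAL1 were not below 2D. The ROR activators, which compete with REV-ERB for the same elements, did not pass the filter and were not tested. RORA means were at most 0.0703 FPKM in PANC-1. In HEK293T they were 0.1085 FPKM in 2D and 0.557, 0.769 and 0.689 in AggreWell, 1 rpm and 30 rpm, all without overlap with 2D.

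NFIL3, a repressor at D-boxes that opposes DBP, rose in every 3D format of both lines. In PANC-1 it went from 6.06 ± 0.485 FPKM to 9.76 ± 0.191, 15.2 ± 0.739 and 18.6 ± 0.586 (0.61 ± 0.05, 1.20 ± 0.05 and 1.47 ± 0.05, limma adjusted p = 1.2e-07, 2.6e-11 and 3.4e-12). In HEK293T it went from 7.15 ± 0.295 FPKM to 10.2 ± 0.468, 16.2 ± 0.348 and 15.5 ± 0.572 (0.46 ± 0.04, 1.08 ± 0.04 and 1.02 ± 0.04, limma adjusted p = 3.8e-07, 4.3e-11 and 6.6e-11). DBP was therefore above 2D beside NFIL3 in rotated PANC-1 cells and below 2D beside it in HEK293T. BHLHE41, the paralogue of BHLHE40, was at most 0.644 FPKM in the means of PANC-1 but rose in HEK293T AggreWell from 1.67 ± 0.213 to 7.63 ± 0.377 FPKM (1.69 ± 0.07, limma adjusted p = 2.0e-10), the format in which BHLHE40 was also highest. CIART, a repressor of CLOCK and BMAL1, rose there as well, from 0.478 ± 0.213 to 1.66 ± 0.00820 FPKM (0.86 ± 0.11, limma adjusted p = 7.2e-06). TIMELESS, which also acts at replication forks, fell at both speeds in PANC-1 (-0.80 ± 0.03 and -0.94 ± 0.03, limma adjusted p = 3.0e-12 and 6.4e-13) and in HEK293T (-0.24 ± 0.03 and -0.40 ± 0.03, limma adjusted p = 7.3e-06 and 4.8e-08). In AggreWell it was called higher in HEK293T (0.35) and in PANC-1 (0.12, no call with median-ratio scaling).

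Of the genes that act on PER stability, CSNK1E, a casein kinase that marks PER for decay, rose at 30 rpm in PANC-1 from 0.613 ± 0.157 to 2.71 ± 0.339 FPKM (1.20 ± 0.08, limma adjusted p = 5.1e-09). The table also lists a read-through gene of this locus, and how reads were divided between them was not tested. Among clock outputs NAMPT, the rate-limiting enzyme of NAD salvage, rose in PANC-1 by 0.86 ± 0.03, 1.23 ± 0.03 and 0.55 ± 0.03 (limma adjusted p = 4.1e-11, 1.7e-13 and 5.9e-10), and in HEK293T by 1.41 ± 0.06, 1.02 ± 0.06 and 0.97 ± 0.06 (limma adjusted p = 2.0e-10, 1.7e-09 and 2.7e-09). The cell cycle kinase WEE1 rose at 30 rpm in PANC-1 from 21.2 ± 1.07 to 44.4 ± 0.975 FPKM (1.03 ± 0.03, limma adjusted p = 2.6e-12). WEE1 was also called higher there at 1 rpm (0.73) and lower in AggreWell (-0.15). In HEK293T it was called higher in AggreWell (0.23, no call with median-ratio scaling), at 1 rpm (0.65) and at 30 rpm (0.94). The deacetylase SIRT1 rose at 1 rpm in PANC-1 from 14.7 ± 0.259 to 25.4 ± 0.147 FPKM (0.75 ± 0.03, limma adjusted p = 8.4e-12). SIRT1 was also called higher there at 30 rpm (0.43) and in every 3D format of HEK293T (0.46, 0.47 and 0.62). In PANC-1 AggreWell it was not called (0.06), and it was called lower with median-ratio scaling (-0.13). KLF10, a zinc-finger factor under clock control, rose in HEK293T from 13.8 ± 1.48 FPKM to 41.4 ± 3.60 at 1 rpm and 38.3 ± 0.556 at 30 rpm (1.51 ± 0.07 and 1.41 ± 0.07, limma adjusted p = 3.2e-10 and 5.9e-10). It was also called higher in HEK293T AggreWell (0.69). In PANC-1 KLF10 was called lower in AggreWell (-0.11) and higher at 1 rpm (0.28, no call with median-ratio scaling) and 30 rpm (0.80).

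**Figure D4:**
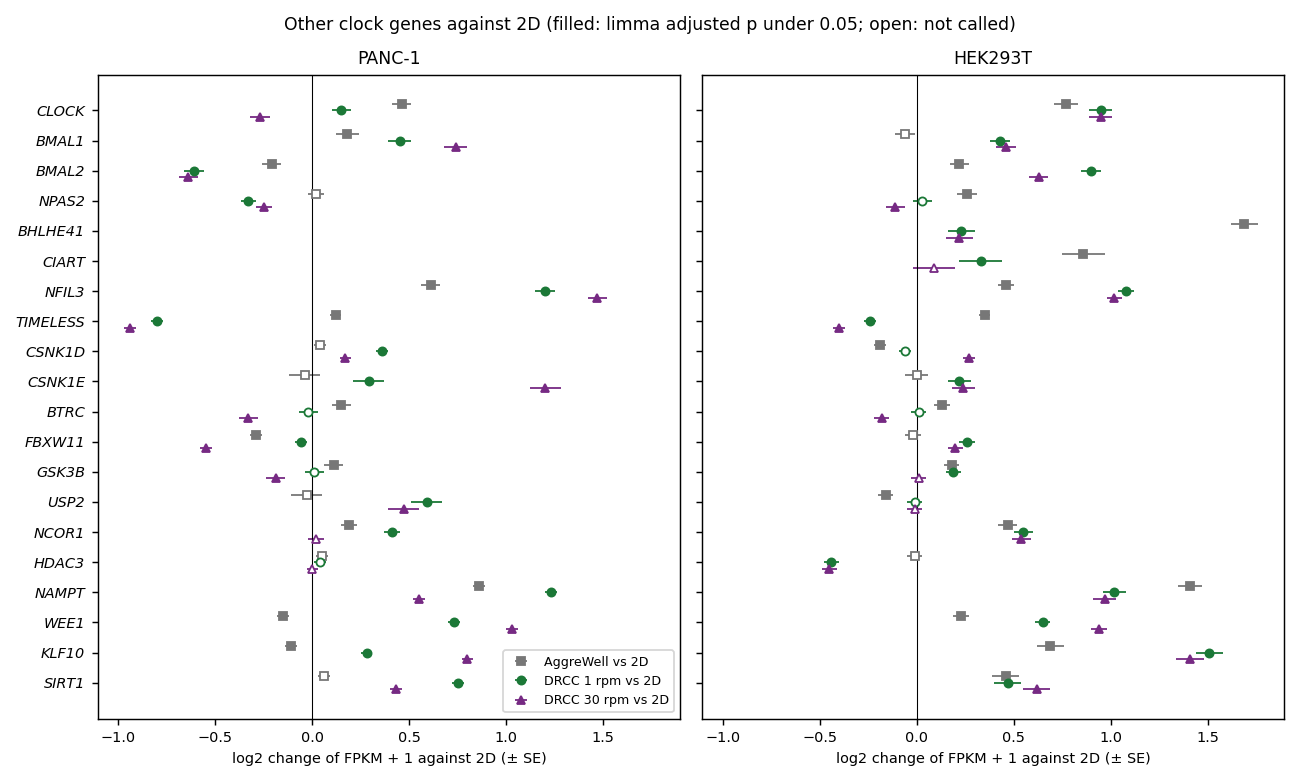
Difference of log2(FPKM + 1) from 2D (horizontal axis, bars ± SE, 3 libraries per format) for other clock genes that passed the filter in at least 1 line (1 of them is not drawn), in AggreWell (gray squares), at 1 rpm (green circles) and at 30 rpm (purple triangles), filled where the limma adjusted p was under 0.05. NFIL3 and NAMPT lie right of 0 in all 6 comparisons, and the calls of CLOCK and BMAL1 that other scalings remove are named in the text.

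The difference between the lines was tested for these other genes. Of the 21, 14 differed in AggreWell, 14 at 1 rpm and 19 at 30 rpm (limma interaction, adjusted p under 0.05), beside 57.0%, 75.8% and 79.5% of all genes. CLOCK differed by 1.22 ± 0.07 at 30 rpm, where it fell in PANC-1 and rose in HEK293T (limma adjusted p = 2.1e-12). For BMAL1 at 1 rpm the difference was -0.02 ± 0.08 (limma adjusted p = 0.85).

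Genes with the most similar pattern were ranked by Pearson's r of log2(FPKM + 1), centred within each line, over 24 libraries and 13382 genes. The points share the 4 formats in groups of 3 libraries, so r mainly compares 8 levels and is a description. Levels were not scaled within lines. For PER1, NR1D1 and DBP, whose changes were far larger in PANC-1, r therefore rests mainly on that line. PER1 was nearest to NR4A2 (r = 0.989) and MIR100HG (0.987), and NR1D1 to NR4A2 (0.995) and CRTC2 (0.986). MIR100HG was at most 0.0012 FPKM in the means of HEK293T, so its r rests on the PANC-1 levels. NR4A2 was at 0.576 ± 0.142 FPKM in PANC-1 2D and 69.9 ± 1.88 at 1 rpm, and at 0.880 ± 0.159 and 1.83 ± 0.221 in HEK293T. In HEK293T AggreWell it was at 0.721 ± 0.0377 FPKM and overlapped 2D, while every PER1 library there lay above 2D. NR1D2 was nearest to DRD4 (0.980) and ZNF8 (0.977), DBP to ANGEL1 (0.983) and FZD4 (0.980), and BHLHE40 to COL6A2 (0.989) and MLXIPL (0.987). For CRY2 they were LOC105376512 (0.968) and CAMKK1 (0.965), and for TEF SFMBT2 (0.925) and RBSN (0.924). PER3 was nearest to CXCL1 (0.919) and KMT2D (0.899), PER2 to CSTF1 (0.858) and SIN3A (0.845), and CRY1 to RYK (0.849) and ZNF341 (0.845), so these members had the least similar nearest genes. CXCL1 was at most 0.0224 FPKM in the means of HEK293T, so its r with PER3 also rests on the PANC-1 levels.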

How the data were processed

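Total RNA of 24 libraries (TRIzol extraction, VAHTS Universal V10 library kit, per the labels' protocols) was sequenced, and the deposited table gives FPKM, normalized by the authors for transcript length and library depth, for 26450 genes. Tools named in the submitters' processing notes, with no role given, are HTSeq, HISAT2, fastp and R 3.2.0. The notes name the mouse build mm10, while 25154 of the symbols match a human RefSeq symbol or synonym. Strandedness and the human build are not stated in these sources.

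Whole fragments were recovered from the values within a tolerance of 0.01 for 26449 of 26450 genes. Groups and replicate numbers come from the sample titles. Genes with at least 1 FPKM in at least 3 libraries were fitted with limma 3.58.1 (R 4.3.3, intensity trend) on log2(FPKM + 1): 11585 genes in PANC-1, 12548 in HEK293T and 13392 over both lines for the interaction. P-values were adjusted by Benjamini-Hochberg over all genes of a comparison. Tables and figures were made in Python 3.11.15 with pandas 2.3.3 and matplotlib 3.10.9. Gene positions and shared exonic bases come from GENCODE 29, which need not be the authors' annotation. The fits were tested on simulated data.

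The members and gene lists were chosen with earlier results of these data known. All members were named, along with CLOCK, BMAL1, the 4 other clock genes with the largest absolute change in each comparison with 2D, THRA, and the 2 genes nearest to each member by correlation. The values of 1 gene that this rule names are not reported here, though counts include it. Genes named from the other lists are among the 2 with the largest change in a comparison with 2D, except FKBP5, which was named for its differing calls. BMAL1 and BMAL2 stand as ARNTL and ARNTL2 in the table. Same-numbered libraries of 2 formats correlated at -0.10 to 0.43 in their deviations from the group means, and all 3 were over 0.1 in 1 of 12 pairs of formats (HEK293T 2D and 1 rpm). Results were recomputed with quantile normalization, with median-ratio scaling, with the replicate block, without the filter, with a stricter one (mean FPKM of 5 or more), with 0.1 as pseudocount, with each library left out in turn, and, chosen after seeing the data, voom on the recovered fragments.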

Additional observations from a re-analysis of the deposited data

Results flagged for a closer look

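Among the tested clock genes, several responses to a format went in opposite directions in the lines, each called in both lines and in the interaction (values are HEK293T minus PANC-1 differences in log2 change from 2D, with the limma interaction adjusted p). BMAL2, a paralogue of BMAL1, fell in PANC-1 and rose in HEK293T, with differences of 0.43 in AggreWell (adjusted p = 8.2e-06), 1.51 at 1 rpm (adjusted p = 1.0e-14) and 1.27 at 30 rpm (adjusted p = 1.0e-13). CLOCK did so at 30 rpm, by 1.22 (adjusted p = 2.1e-12). FBXW11, a ubiquitin ligase subunit that acts on PER, differed by 0.33 at 1 rpm (adjusted p = 4.8e-06) and by 0.75 at 30 rpm (adjusted p = 1.2e-11). In AggreWell WEE1 differed by 0.38 (adjusted p = 1.5e-06) and KLF10 by 0.80 (adjusted p = 9.2e-08). All these differences were also called with median-ratio scaling and quantile normalization, but with the latter that of BMAL2 in AggreWell was 0.16 (adjusted p = 0.025) and that of FBXW11 at 1 rpm 0.20 (adjusted p = 0.00095), and BMAL2 then fell in HEK293T AggreWell too (-0.12). BMAL2 and FBXW11 were named after their values were seen. The opposite calls within the lines were lost with 1 or both scalings for BMAL2 in AggreWell, for FBXW11 at both speeds and for WEE1, and held for the others.

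For members the libraries of the lines moved to opposite sides of 2D, which was not tested. The differences, again HEK293T minus PANC-1, were 0.26 in AggreWell, -0.48 at 1 rpm and 0.60 at 30 rpm for PER2, whose sign within a line depends on the scaling. PER3 differed by -0.49 at 1 rpm, with few fragments in HEK293T, and NR1D2 by 0.92 in AggreWell. DBP differed in every format, by -0.68 in AggreWell, -4.12 at 1 rpm and -3.79 at 30 rpm.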

How the results depend on the processing

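Scaling was the choice that mattered most. With median-ratio scaling the other clock genes called higher fell to 4 in PANC-1 AggreWell (9 as reported) and 9 in HEK293T AggreWell (15), and those called lower went to 8 in PANC-1 AggreWell (4), 7 at 1 rpm (4), and 6 in HEK293T AggreWell and 6 at 1 rpm (2 each). Quantile normalization also gave 6 lower in both of the latter. A mean FPKM of at least 5, with fewer genes tested, gave 5 higher in PANC-1 AggreWell (9) and 4 lower at 30 rpm (7), and no value for low members. Changes that turned sign were, with median-ratio scaling, PER2 in HEK293T AggreWell (-0.02) and 30 rpm (-0.06), CRY1 in PANC-1 at 1 rpm (-0.03) and 30 rpm (-0.06), and CRY2 in HEK293T at 1 rpm (-0.09). With quantile normalization they were PER2 in PANC-1 at 1 rpm (-0.09) and in HEK293T AggreWell (-0.23) and 30 rpm (-0.29), CRY1 in PANC-1 at 30 rpm (-0.01), CRY2 in HEK293T at 1 rpm (-0.19), and TEF in HEK293T AggreWell (-0.00) and 1 rpm (-0.20). The cause was not tested. Of the 76 log2 changes of members, 57 moved by more than the spread between replicates with median-ratio scaling, 54 with quantile normalization, 37 with a pseudocount of 0.1 and 39 with voom, the last pair with no change of sign. In PANC-1 at 1 rpm PER1 was 5.24 with voom (4.91 as reported), while with that pseudocount and with voom DBP was 4.15 and 4.22 (3.61) and NR1D1 3.91 and 3.94 (3.65). With a library left out 906 such values stayed within that spread and 6 moved: PER1 without PANC-1 2D replicate 2 (-0.11, 4.84 and 4.09) and NR1D1 without PANC-1 2D replicate 1 (-0.05, 3.75 and 3.57). The counts of other clock genes called did not move by over 1.5 times with any 1 library left out, a pseudocount of 0.1, no filter or voom. With each library left out in turn, the higher calls ranged from 7 to 9, 11 to 12 and 10 to 10 in PANC-1 (AggreWell, 1 rpm, 30 rpm) and from 15 to 15, 14 to 15 and 13 to 14 in HEK293T. The lower calls ranged from 4 to 4, 3 to 4, 7 to 7, 2 to 2, 2 to 3 and 3 to 4, listed likewise, and the line differences from 14 to 15, 12 to 16 and 13 to 19. With the replicate block, 8, 12 and 10 other clock genes were called higher in PANC-1 and 15, 15 and 14 in HEK293T, and 4, 4 and 7, and 2, 2 and 3 lower. In 1 of 12 pairs of formats every library correlated best with its own number. PER3 in HEK293T (24 to 76 fragments) was limited by depth.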

Other observations

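Genes that answer cAMP and growth signals at once were high in the same PANC-1 groups as PER1. Of 10 listed CREB target and immediate early genes, chosen with earlier results of these data known, 9 were tested in each line. In PANC-1, 9 rose and 0 fell at 1 rpm and again at 30 rpm (limma adjusted p under 0.05; 52.3% and 53.6% of all genes rose), with medians of 2.17 and 3.17 beside 0.15 and 0.17 for all genes. NR4A2, an orphan nuclear receptor, rose by 5.50 ± 0.05 and 5.35 ± 0.05 (limma adjusted p = 1.5e-16 and 8.4e-17). EGR1, a zinc-finger factor, rose by 3.39 ± 0.05 at 1 rpm (limma adjusted p = 4.4e-15) and FOS by 3.97 ± 0.05 at 30 rpm (limma adjusted p = 3.9e-16). In AggreWell, where PER1 overlapped 2D, 7 rose and 1 fell with a median of 0.30, and FOS rose by 2.07 ± 0.05 (limma adjusted p = 1.4e-12). With median-ratio scaling 5 rose and 2 fell there. In HEK293T the counts were 7 and 0 in AggreWell, 8 and 1 at 1 rpm and 7 and 1 at 30 rpm, with medians of 0.19, 0.53 and 0.63, and with quantile normalization 3 and 4, 4 and 2, and 6 and 2. DUSP1, a phosphatase, rose there by 1.71 ± 0.04 and 2.20 ± 0.04 under rotation (limma adjusted p = 1.7e-13 and 1.7e-14).

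Of 8 listed glucocorticoid receptor targets, also chosen with earlier results of these data known, 7 were tested in each line. In PANC-1, 3 rose and 0 fell in AggreWell, 6 and 0 at 1 rpm and 7 and 0 at 30 rpm. The AggreWell count was 1 and 4 with median-ratio scaling, and the 1 rpm count was 6 and 1 with both other scalings. Medians in PANC-1 were 0.06, 1.27 and 1.10 (45.9%, 52.3% and 53.6% of all genes rose). In HEK293T, 4 rose and 1 fell, 6 and 0, and 5 and 1, with medians of 0.16, 0.80 and 1.07 (3 and 2, 4 and 1, and 5 and 2 with median-ratio scaling, and 2 and 1, 4 and 3, and 5 and 2 with quantile normalization). Of all genes 48.6%, 53.1% and 49.6% rose there. TSC22D3, a leucine zipper factor, rose at 1 rpm and 30 rpm by 3.08 ± 0.05 and 3.38 ± 0.05 in PANC-1 and by 1.5 ± 0.02 and 2.19 ± 0.02 in HEK293T (limma adjusted p = 3.7e-15, 1.4e-15, 2.7e-14 and 6.5e-16). KLF9, a zinc-finger factor, rose in PANC-1 by 2.31 ± 0.06 and 2.19 ± 0.06 (limma adjusted p = 2.1e-13 and 3.6e-13). In HEK293T AggreWell TSC22D3 was called lower (71.2 to 62.5 FPKM). FKBP5, another listed target, was not called in PANC-1 at 1 rpm (5.67 to 5.91 FPKM) and was called lower in HEK293T at 30 rpm (8.22 to 7.56 FPKM). It was called higher in PANC-1 at 30 rpm and in HEK293T at 1 rpm. The part of these signals in the members' levels was not tested.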
